A study of Homo sapiens with 6 samples.

Results

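The genes that encode CDK2, the cyclins CCNE1, CCNA2 and CCND1, and the inhibitors CDKN1A and CDKN1B were examined as places on chromatin, through the reads that 2 antibodies recovered there. For each gene the deposited 10 kb windows that start within a fixed hg19 range around it were taken. This gave 16 windows for 6 genes out of 303641 windows in all, and all 16 passed the minimum for comparison, a mean of 10 reads over the libraries. CDK2 had 2 windows on chromosome 12, 56350001 to 56370000. CCNE1 had 3 on chromosome 19, 30290001 to 30320000, CCNA2 had 2 on chromosome 4, 122730001 to 122750000, and CCND1 had 4 on chromosome 11, 69440001 to 69480000. CDKN1A had 3 on chromosome 6, 36630001 to 36660000, and CDKN1B had 2 on chromosome 12, 12860001 to 12880000. The ranges are those of the selection, and exons and start sites were not placed within the windows, because the annotation at hand was of another build.

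The cells were T47D-MTVL, made from the human breast tumour line T47D, which carries a reporter gene behind a mouse mammary tumour virus promoter. They had been kept in serum stripped of steroids with charcoal and then without serum. R5020, a synthetic progestin, was given at 10 nM for 5 or 30 min, and cells at 0 min received none. Chromatin fixed with formaldehyde was immunoprecipitated with an antibody to the kinase CDK2 or to PARP1, an enzyme that builds ADP-ribose chains on proteins, and sequenced. The stated interest of the study was how CDK2 switches on PARP1 when progestin is given. Each antibody and time had 1 library, so no value carries an error between replicates and no test of a condition was made. The identity of the line was not checked here against markers, as the files hold DNA read counts and no expression values.

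CDK2 is a serine/threonine kinase that works only when bound to a cyclin. Cyclin E1, from CCNE1, drives it at the entry into S phase, and cyclin A2, from CCNA2, takes over during DNA replication. Cyclin D1, from CCND1, pairs mainly with the related kinases CDK4 and CDK6, and is a gene long studied in progestin and oestrogen responses of breast cells. The proteins p21, from CDKN1A, and p27, from CDKN1B, bind cyclin-CDK2 complexes and block them. Progestins are known to push breast cancer cells through a round of division and then to hold them in G1, a change in which these genes take part. In these data the CDK2 protein is both the target of an antibody and the product of a gene under study. Below, "CDK2 reads" are those of the antibody, and "the CDK2 gene region" is the place.

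The promoter sequences of these genes are shown for orientation only, as the start sites were not placed within the windows. RefSeq entries (GRCh38.p14) matched 4 of the 6 genes; CDK2 and CCND1 had none. The 250 bases before the gene start are given 5′ to 3′ on the strand of the gene. They lie at chr19:29811741-29811990 on the plus strand, chr4:121823884-121824133 on the minus strand, chr6:36678464-36678713 on the plus strand and chr12:12717118-12717367 on the plus strand, positions of GRCh38.p14 and not of the hg19 windows. Capitals mark matches, on either strand, to the GC box GGGCGG, the CCAAT box CCAAT, the steroid receptor half-site TGTTCT and the cyclic AMP response element TGACGTCA.
CCNE1 promoter: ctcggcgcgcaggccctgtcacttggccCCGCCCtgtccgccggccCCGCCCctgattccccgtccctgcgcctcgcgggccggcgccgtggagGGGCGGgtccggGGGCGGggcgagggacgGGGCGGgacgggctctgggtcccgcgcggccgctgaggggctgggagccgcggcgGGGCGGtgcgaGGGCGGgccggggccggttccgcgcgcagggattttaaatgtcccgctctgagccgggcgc
CCNA2 promoter: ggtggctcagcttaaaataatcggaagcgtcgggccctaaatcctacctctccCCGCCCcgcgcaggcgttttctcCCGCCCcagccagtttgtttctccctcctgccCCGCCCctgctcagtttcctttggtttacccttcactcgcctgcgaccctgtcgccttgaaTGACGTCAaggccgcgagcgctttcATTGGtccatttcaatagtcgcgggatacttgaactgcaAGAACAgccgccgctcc
CDKN1A promoter: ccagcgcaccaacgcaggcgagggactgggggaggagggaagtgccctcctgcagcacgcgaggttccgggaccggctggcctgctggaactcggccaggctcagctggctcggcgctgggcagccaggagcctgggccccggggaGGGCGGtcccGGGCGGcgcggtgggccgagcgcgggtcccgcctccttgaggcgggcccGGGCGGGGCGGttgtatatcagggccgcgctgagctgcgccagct
CDKN1B promoter: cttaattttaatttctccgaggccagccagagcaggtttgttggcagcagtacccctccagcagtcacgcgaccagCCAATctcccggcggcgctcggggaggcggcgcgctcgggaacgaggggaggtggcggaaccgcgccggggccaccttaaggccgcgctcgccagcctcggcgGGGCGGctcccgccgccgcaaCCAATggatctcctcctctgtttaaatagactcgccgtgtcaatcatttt

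The GC box was matched 7 times in CCNE1, 4 times in CDKN1A, of which the last pair shares a base, 3 times in CCNA2 and once in CDKN1B. It was present in 42.6% of 35116 promoters of the same length. The CCAAT box occurred in CCNA2 and CDKN1B, against 32% of promoters, the half-site in CCNA2, against 12.4%, and the cyclic AMP response element in CCNA2, against 1.65%. The letters TTTNGCGC, a form of the E2F site, occurred in none of the 4 and in 1.51% of promoters. The GC content was 81.2% for CCNE1, 76.4% for CDKN1A, 64.4% for CDKN1B and 58.8% for CCNA2, beside a median of 58% over all promoters. These matches describe the sequence only.

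The libraries held 40097131 to 63448449 reads, and the median compared window held 130 to 208. Levels are given as RPM, the reads in a 10 kb window divided by the total of the library and multiplied by 1000000, averaged over the windows of a region, with the exact Poisson 95% interval. Ratios between libraries are of these levels, with an exact 95% interval conditional on both counts. Such intervals cover counting error only. Neighbouring windows scattered far more than counting allows, by a variance 4.51 to 33.95 times the binomial one around the local ratio, a factor called the dispersion. It was 24.53 for CDK2 at 5 against 0 min and 14.41 at 30 min, and 6.41 and 4.75 for PARP1. The widened interval divides the counts by the dispersion. As a local yardstick, each gene region was set beside runs of as many windows within 500 kb on each side, 24 to 50 runs a gene and 238 in all. The 5 min CDK2 library stood apart, with 3986 compared windows at 0 reads. The 30 min CDK2 library had 588, and the remaining libraries had 4 to 14. None of the 16 windows was at 0 in any library.

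The CDK2 gene region held the most reads per window in all 6 libraries and the CDKN1B region the fewest in 5 of 6, the exception being CDK2 at 0 min, where CCNE1 was lower. The plot of levels shows this order. For the CDK2 gene region the lowest, median and highest levels over the libraries were 4.63, 5.64 and 7.34 RPM. CDKN1A followed with 2.95, 4.24 and 5.18, CCND1 with 3.05, 3.99 and 5.14, and CCNA2 with 2.04, 3.31 and 3.66. CCNE1 had 1.69, 2.05 and 3.23, and CDKN1B 0.614, 1.495 and 2.93. The ranges of all neighbours in this order overlap over libraries, although within each of the 6 libraries the CDK2 gene region was above CDKN1A. The surroundings differed in level too. The reference windows of CDKN1B held 0.421 to 0.511 times the median compared window and those of the CDK2 gene 1.35 to 1.53 times. Copy number and how uniquely reads map were not measured, so their part in these levels was not tested.

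**Figure D1:**
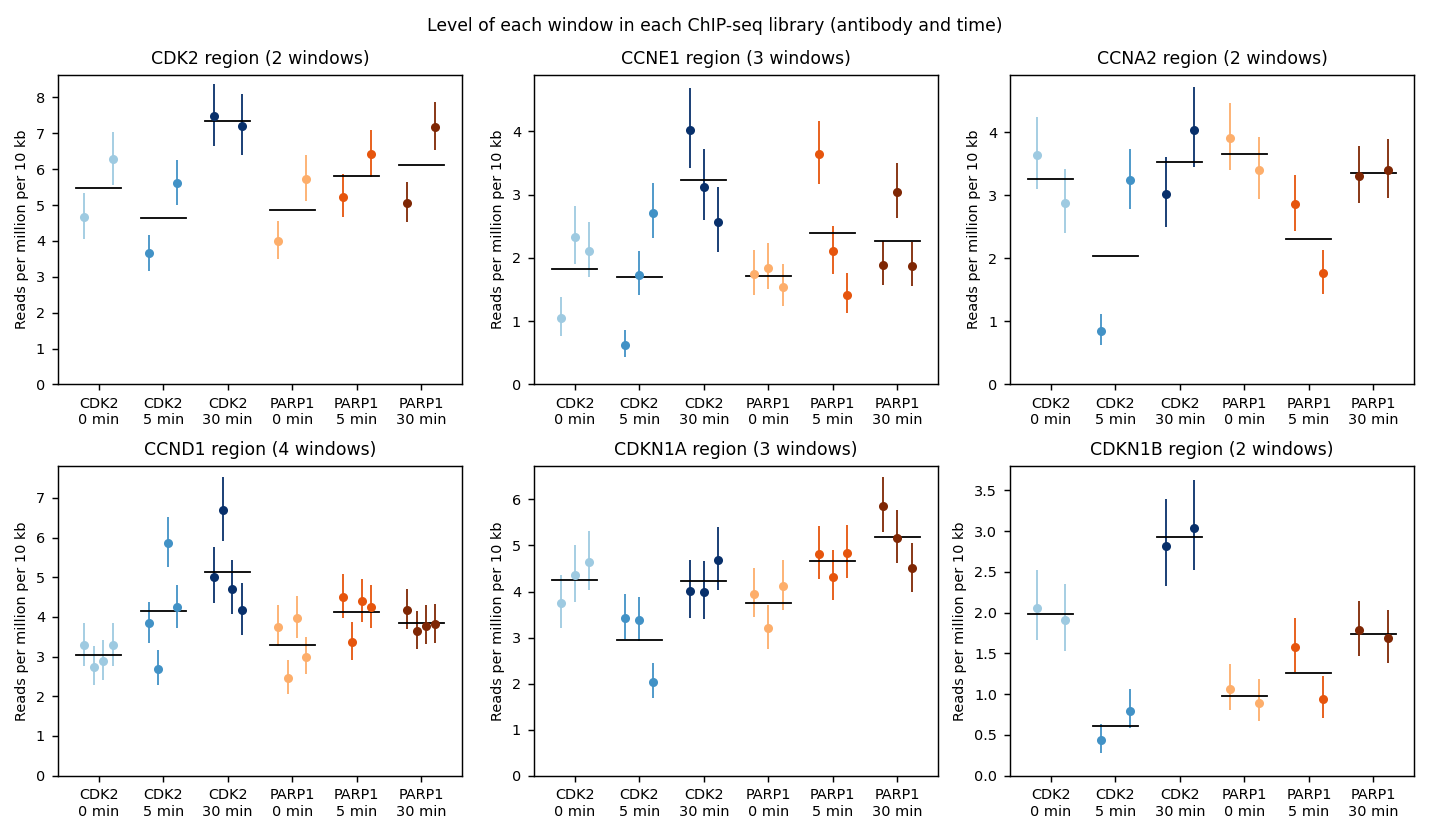
RPM (vertical axis) in each 10 kb window of the 6 gene regions, by antibody and time of R5020 (horizontal axis). Points are windows in genome order, vertical bars exact Poisson 95% intervals and black lines the mean of the windows. The CDKN1B region goes from 1.98 to 0.614 and 2.93 RPM with the CDK2 antibody at 0, 5 and 30 min, and from 0.977 to 1.26 and 1.73 with the PARP1 antibody.

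A window was called between 2 libraries where its ratio reached 2 or was 0.5 or less, and where an exact binomial test, adjusted by Benjamini-Hochberg over all 278395 compared windows, was under 0.05. This compares 2 libraries, not the conditions. For CDK2 at 5 against 0 min, 1 of the 16 windows was called higher, where 6.21% of all compared windows were, and 4 lower, where 16.2% were. For CDK2 at 30 against 0 min, 2 were higher (background 5.46%) and 0 lower (11.5%), and at 30 against 5 min 7 were higher (18.4%) and 0 lower (15.1%). For PARP1 at 5 against 0 min, 1 was higher (0.893%) and 0 lower (1.73%), beside 2.62% in either direction. At 30 min 0 were called against 0 min (0.406% higher and 0.587% lower, 0.993% in all) and 0 against 5 min (1.3% and 0.8%, 2.1% in all). In either direction the background for CDK2 over time was 22.4%, 17% and 33.5% of all windows, in the order above. After counts were divided by the dispersion, 0 of the 16 were called in any of the 9 comparisons. Of all compared windows this measure called 0.000359%, 0% and 0.000718% for CDK2 over time in the order above, and 0.000359%, 0.00251% and 0.000359% for PARP1. For CDK2 against PARP1 at 0, 5 and 30 min it called 0.00431%, 0.00287% and 0.00323%, so it leaves very few windows anywhere.

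Without a limit on size, the windows leaned to higher reads after R5020 with both antibodies at 30 min and with PARP1 at 5 min. The ratio to 0 min was above 1 in 14 of 16 windows for CDK2 at 30 min, with a median of 1.35, where 46.7% of all compared windows were above 1 with a median of 0.963. For PARP1 it was above 1 in 13 of 16 at 5 min, median 1.19, against 48.6% and 0.991, and in 13 of 16 at 30 min, median 1.26, against 49.3% and 0.996. At 5 min the CDK2 ratio was below 1 in 11 of 16, with a median of 0.837 against 0.964, but the median turned above 1 when libraries were scaled on the windows of lowest mean (log2 -0.26 to 0.091). The windows of 1 gene are neighbours, so 16 windows are 6 places and not 16 independent points. The surroundings leaned the same way, with 57% of the 591 compared reference windows above 1 for CDK2 at 30 min (median 1.10), 61.1% for PARP1 at 5 min (1.08) and 59.4% at 30 min (1.07). All of these comparisons with 0 min share the 0 min library of their antibody.

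**Figure D2:**
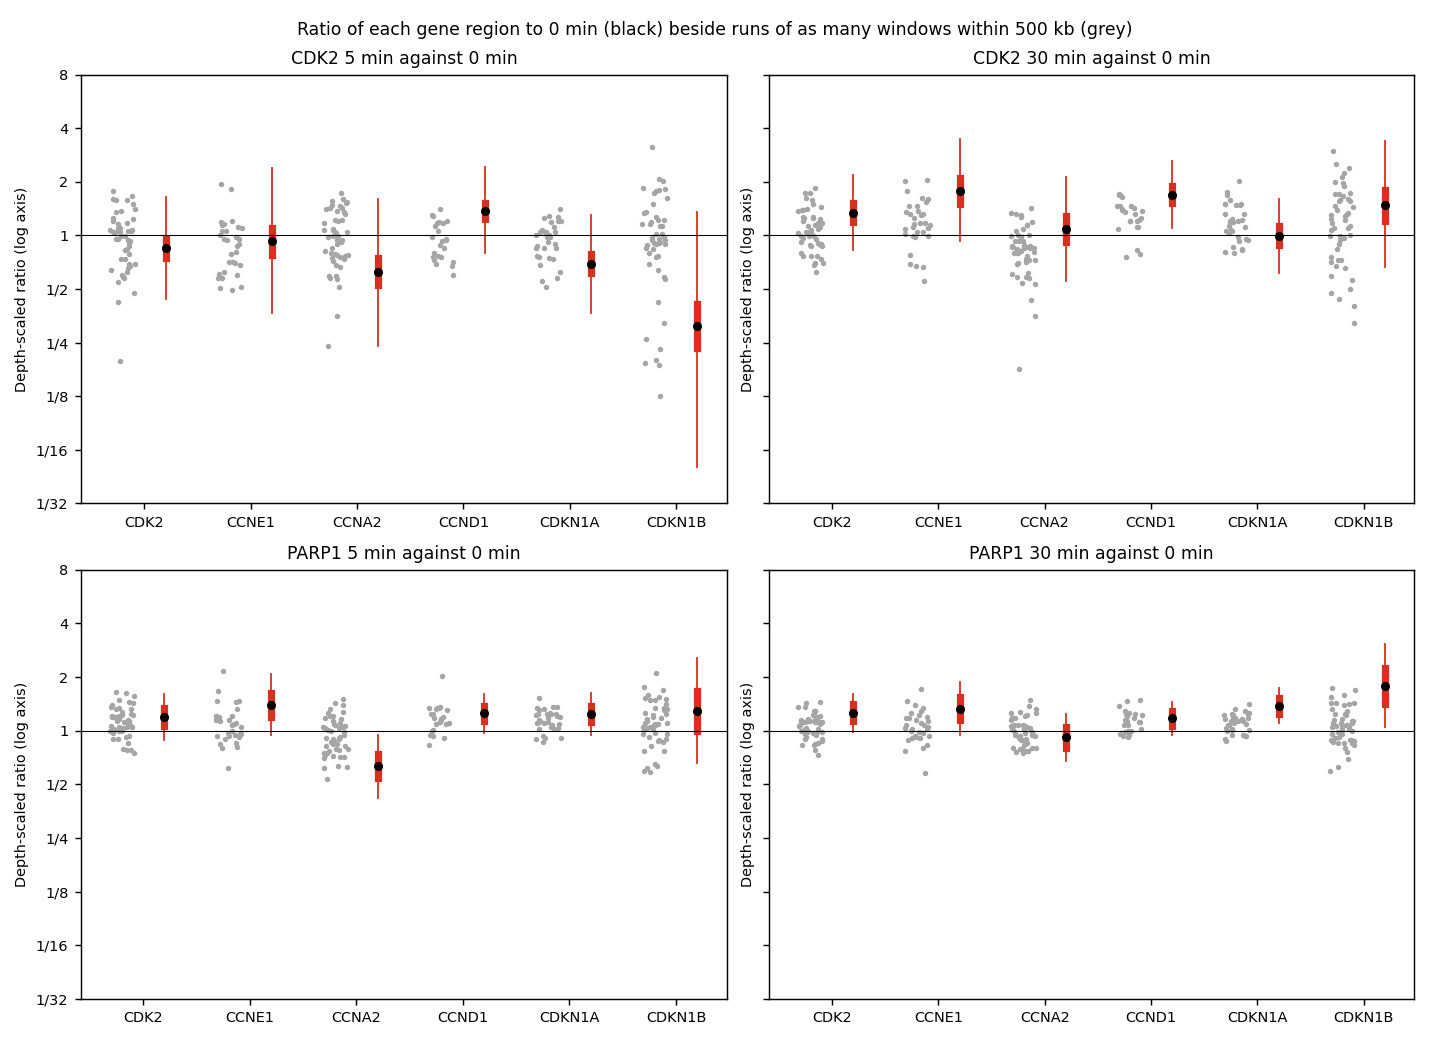
Depth-scaled ratio to 0 min (vertical axis, log scale) of the reads summed over each gene region (black points), with counting 95% intervals (thick bars) and widened intervals (thin bars); grey points are runs of as many windows within 500 kb. At 5 min the CDK2 ratios run from 0.310 at CDKN1B to 1.37 at CCND1, and at 30 min the PARP1 ratios run from 0.918 at CCNA2 to 1.77 at CDKN1B.

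The region of the CDK2 gene, which encodes the kinase itself, had 210 and 283 CDK2 reads in its 2 windows before R5020. After 5 min it had 211 and 324, and after 30 min 300 and 289. In RPM this was 5.46 (4.99 to 5.97), 4.63 (4.24 to 5.04) and 7.34 (6.76 to 7.96). By RPM, CDK2 reads in the CDK2 gene region were thus highest at 30 min. The first window carried most of that gain, with a ratio of 1.61 against 1.15 (counting interval 0.972 to 1.36) for the second. Which of the 2 windows the gene itself covers was not determined. The ratio of the region to 0 min was 0.847 at 5 min (widened interval 0.441 to 1.64; 1.08 when scaled on windows with the lowest means) and 1.34 at 30 min (0.833 to 2.18), and the latter was higher than in 39 of 50 neighbouring runs. Relative to the surroundings the ratio was 0.878 at 5 min and 1.22 at 30 min. With 10 kb more on each side these became 1.20 and 1.03, so the wider range stood higher at 5 than at 30 min. PARP1 had 223 and 319 reads before R5020, 306 and 375 after 5 min, and 321 and 456 after 30 min. This region was higher for PARP1 at both times, with ratios of 1.20 (widened 0.892 to 1.61) and 1.26 (0.986 to 1.62), and its reference windows stood at 1.13 and 1.08. Relative to the surroundings the PARP1 ratios were 1.06 and 1.17, and with 10 kb more on each side 0.902 and 1.01. Only the first window between CDK2 at 30 and 5 min was called, with a ratio of 2.05 (counting interval 1.71 to 2.46, widened 0.654 to 6.89). The region stood at 1.07 to 1.498 times its reference mean, but at 0.971 times for CDK2 at 5 min with a reference of 250 kb, and had RAB5B and PMEL as the nearest protein-coding neighbours.

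The region of CCNE1, the gene of cyclin E1, held the window with the largest CDK2 ratio at 30 against 0 min among the 16. Whether that window lies over the gene itself was not determined. In 30290001 to 30300000, the first of the 3 windows of the region, CDK2 had 47 reads before R5020, 36 after 5 min and 161 after 30 min. The ratio at 30 min was 3.85 (counting interval 2.77 to 5.45, widened 1.06 to 19.8), higher than in all 100 reference windows. The 0 min count was low, at 0.447 times its reference mean, with 99 of 100 reference windows higher. At 30 min the window stood at 1.46 times its reference mean, with 12 higher. PARP1 had 97, 213 and 120 reads in the same window, so its high point came at 5 min, with a ratio of 2.09 (1.64 to 2.69, widened 1.11 to 4.13), and 5 of 100 reference windows were higher. The 2 antibodies thus peaked there in libraries of different times. In the other windows CDK2 had 105, 100 and 125 reads and 95, 157 and 103 reads at 0, 5 and 30 min, and PARP1 had 103, 123 and 193 and 86, 83 and 119. Over the region CDK2 went from 1.83 RPM to 1.69 and 3.23. The ratio was 0.926 at 5 min (1.18 when scaled on windows with the lowest means, and 1.00 relative to the surroundings) and 1.77 at 30 min (widened 0.933 to 3.46). PARP1 went from 1.71 to 2.39 and 2.27, ratios of 1.40 (0.940 to 2.09) and 1.33 (0.948 to 1.87). The region was under its reference mean in 5 of 6 libraries, at 0.730 to 0.942 times it (for PARP1 at 5 min 1.02 times the median of the reference windows), and above it for CDK2 at 30 min, at 1.17 times (1.06 to 1.299).

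CCNA2, the gene of cyclin A2, was the only one of the 6 regions with a PARP1 ratio below 1 at 5 min and at 30 min. Its 2 windows held 218 and 190 PARP1 reads before R5020, 167 and 103 after 5 min, and 210 and 216 after 30 min. Scaled by the totals, both windows were below their 0 min level at 5 min, and at 30 min they stood at 0.847 and 0.999 times it. In the 5 min library the first window was still at 1.14 times its reference mean, and the second at 0.704 times. The ratio at 5 min was 0.631 (counting interval 0.539 to 0.738, widened 0.417 to 0.946), lower than in 47 of 50 neighbouring runs, and 0.918 at 30 min (widened 0.675 to 1.25). Relative to its 500 kb surroundings the 5 min ratio was 0.671 (counting interval 0.573 to 0.784), with a widened interval of 0.443 to 1.00. It became 0.857 with 10 kb more on each side, so much of the low value rests on the 2 windows. CDK2 reads were also fewer at 5 min, but in 1 window, with 164, 49 and 121 reads at 0, 5 and 30 min in the first and 130, 187 and 162 in the second. The first was called lower at 5 min, with a ratio of 0.233 (0.166 to 0.323, widened 0.0234 to 1.25), and lay under 96 of its 100 reference windows. In the 0 min PARP1 library no run of the surroundings was above the region, which stood at 1.38 times (1.24 to 1.52) its reference mean.

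CCND1, the gene of cyclin D1, had more CDK2 reads in both libraries after R5020 than before. Its 4 windows held 148, 124, 130 and 148 CDK2 reads before R5020, 222, 156, 339 and 245 after 5 min, and 201, 268, 189 and 167 after 30 min. Scaled by the totals, 3 of the 4 windows were higher at 5 min than at 0 min, and the second stood at 0.982. The CDK2 level went from 3.05 (2.80 to 3.31) RPM to 4.16 (3.90 to 4.43) and 5.14 (4.80 to 5.51). The peak sat in the third window at 5 min, with a ratio of 2.04 (1.66 to 2.51, widened 0.704 to 6.97), and in the second at 30 min, with 2.43 (1.96 to 3.03, widened 1.03 to 6.23), and both were called. For the whole region the ratio was 1.37 at 5 min (widened 0.793 to 2.41), higher than in 23 of 24 neighbouring runs, and 1.69 at 30 min (1.10 to 2.61), higher than in 22. At 30 min CCND1 was the only region whose widened CDK2 interval lay off 1, as it did in 6.72% of the 238 neighbouring runs. Its reference windows were also at 1.31 at that time, and relative to them the ratio was 1.29 (widened 0.843 to 2.00). PARP1 had 209, 137, 221 and 167 reads before R5020, 263, 197, 257 and 248 after 5 min, and 265, 231, 240 and 242 after 30 min. Its ratios of 1.25 (widened 0.977 to 1.61) and 1.17 (0.946 to 1.45) stood beside 1.15 and 1.117 in the surroundings. Of the 100 reference windows 8 held 0 reads in all libraries, and without the 9 under the minimum the region stood at 0.885 to 1.23 times its reference (0.987 for PARP1 at 30 min, from 1.08).

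**Figure D3:**
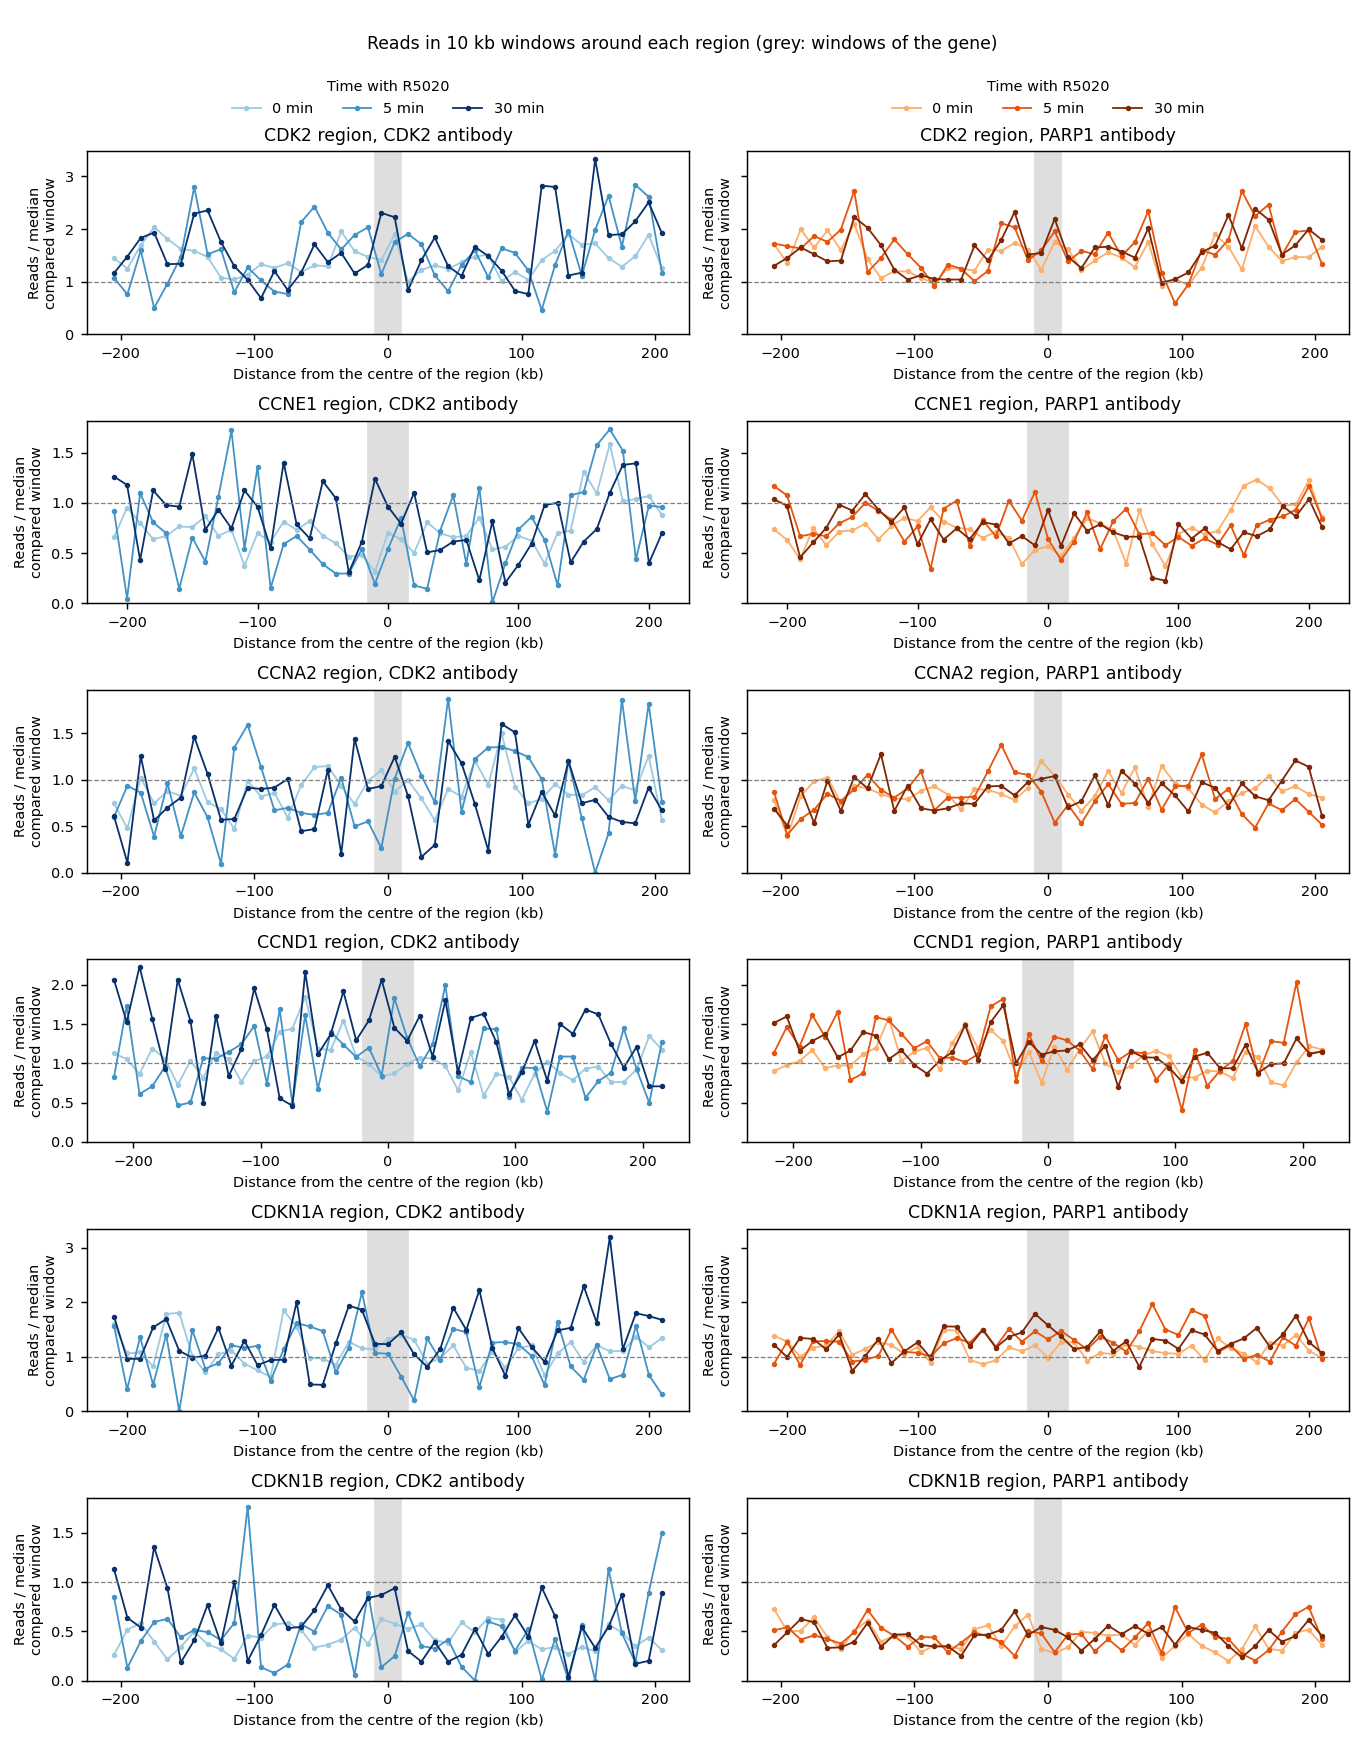
Reads per 10 kb window divided by the median compared window of the library (vertical axis) within about 200 kb of each region (horizontal axis, distance from its centre), for the CDK2 antibody on the left and PARP1 on the right at 0, 5 and 30 min. Grey bands are the windows of the gene. The CDK2 lines of 5 and 30 min swing far more from window to window than the PARP1 lines. Over the wider 500 kb on each side, the CDKN1B reference windows averaged 0.421 to 0.511 times the median, by library.

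CDKN1A, the gene of p21, had higher PARP1 levels at both times and a CDK2 level below that of 0 min at 5 min. The 3 windows held 220, 179 and 230 PARP1 reads before R5020, 282, 253 and 283 after 5 min, and 372, 328 and 286 after 30 min. All 3 were higher at both times than before, with the first and second highest at 30 min. The PARP1 level went from 3.76 (3.47 to 4.06) to 4.66 (4.35 to 4.99) and 5.18 (4.86 to 5.51) RPM. The ratio was 1.24 at 5 min (widened 0.946 to 1.63) and 1.38 at 30 min (1.10 to 1.73), the latter higher than in 31 of 32 neighbouring runs. The reference windows stood at 1.14 at 5 min. Relative to the surroundings the ratio was 1.09 at 5 min (counting interval 0.979 to 1.21) and 1.26 at 30 min (widened 1.01 to 1.58). CDK2 had 169, 197 and 209 reads before R5020, 198, 195 and 118 after 5 min, and 161, 160 and 188 after 30 min. Its ratio was 0.694 at 5 min (widened 0.366 to 1.31) and 0.996 at 30 min (0.615 to 1.61; 1.03 to 1.08 under the other scalings), while the reference windows stood at 1.19 at 30 min. The third window was called lower for CDK2 at 5 min, with a ratio of 0.441 (0.349 to 0.555, widened 0.112 to 1.51).

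CDKN1B, the gene of p27, had the widest swings of the 6 regions and the lowest depth. Its 2 windows held 93 and 86 CDK2 reads before R5020, 25 and 46 after 5 min, and 113 and 122 after 30 min. Both windows moved together in each library. The ratio to 0 min was 0.310 at 5 min (counting interval 0.232 to 0.410, widened 0.0502 to 1.35) and 1.477 at 30 min (widened 0.663 to 3.37), and that of 30 to 5 min was 4.77 (3.64 to 6.31, widened 0.924 to 44.2). Both windows were called lower at 5 min and higher at 30 against 5 min. The surroundings scattered as widely with this antibody, with 6 of 50 neighbouring runs lower at 5 min and a range of 0.126 to 3.12. PARP1 had 59 and 50 reads before R5020, 92 and 55 after 5 min, and 113 and 107 after 30 min. Its ratio was 1.29 at 5 min (widened 0.657 to 2.56) and 1.77 at 30 min (counting interval 1.40 to 2.25, widened 1.05 to 3.07). The latter was above all 50 neighbouring runs, of which the highest was 1.73. The PARP1 level at 0 min was low, at 0.711 times its reference mean, with 47 of 50 runs higher. At 30 min it was 1.20 times, with 8 runs higher. Relative to the surroundings the 30 min ratio was 1.69 (widened 1.00 to 2.91). It became 1.16 when 10 kb were added on each side, and the CDK2 ratio at 5 min relative to the surroundings went from 0.314 to 0.922, so these values rest on the 2 windows.

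Counted over gene regions, the widened interval lay off 1 for 0 of 6 regions with CDK2 at 5 min and 1 at 30 min, and for 1 with PARP1 at 5 min and 2 at 30 min. Among the 238 neighbouring runs it did so in 2.94%, 6.72%, 10.1% and 9.66%. The inhibitors CDKN1A and CDKN1B were the 2 regions with PARP1 at 30 min. Between 30 and 5 min no region was off 1 by this measure (4.2% of runs for CDK2 and 3.78% for PARP1), although all 6 CDK2 ratios were above 1, from 1.24 at CCND1 to 4.77 at CDKN1B. The surroundings of 5 of the 6 were above 1 as well, and relative to them CCND1 stood at 0.929, and the CDK2 gene at 1.39 or, with 10 kb more on each side, 0.862. For PARP1 the region ratios of 30 to 5 min, scaled by the totals, ran from 0.934 at CCND1 to 1.45 at CCNA2.

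CDK2 reads were then set against PARP1 reads in the same region at each time. The yield of the antibodies was not measured, so such a ratio tells only where reads lay. At 0 min 5 of the 6 regions were between 0.891 at CCNA2 and 1.13 at CDKN1A. CDKN1B stood apart with 2.03 (counting interval 1.59 to 2.60, widened 1.20 to 3.52), above all 50 neighbouring runs, of which the highest was 1.73 (with 10 kb more on each side its ratio relative to the surroundings went from 2.01 to 1.29), and it was the only region with the widened interval off 1, as 3.36% of the 238 runs were. Its second window, with 86 CDK2 and 50 PARP1 reads, was the only 1 of the 16 called higher (background 0.442%), with 0 lower (0.733%). The same 0 min PARP1 reads of the CDKN1B region also divide its PARP1 ratios to 0 min. They stood at 0.711 times their reference mean, with 47 of 50 runs higher. At 5 min the ratio was below 1 in 5 of 6 regions, from 0.489 (widened 0.0587 to 2.78) at CDKN1B to 0.885 at CCNA2, and 1.01 at CCND1. When libraries were scaled on windows with the lowest means CCNA2 turned to 1.09, and with 10 kb more on each side CDKN1B went from 0.534 to 1.21 relative to its surroundings. The reference windows were below 1 in 5 of the 6 surroundings too. In this comparison 4 windows were called lower (background 17%) and 0 higher (8.02%), 1 each of CCNE1, CCNA2, CDKN1A and CDKN1B. At 30 min it was above 1 in 5 of 6, from 1.05 at CCNA2 to 1.69 at CDKN1B, and 0.817 at CDKN1A. The first CCNE1 window was called higher, with 161 CDK2 and 120 PARP1 reads (ratio 2.12, 1.67 to 2.71), 1 window against a background of 3.84%, and 0 were lower (10.3%). No widened interval of a region lay off 1 at 5 min (1.68% of runs) or 30 min (2.52%), and in either direction the background of window calls was 1.17%, 25% and 14.2% at 0, 5 and 30 min.

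**Figure D4:**
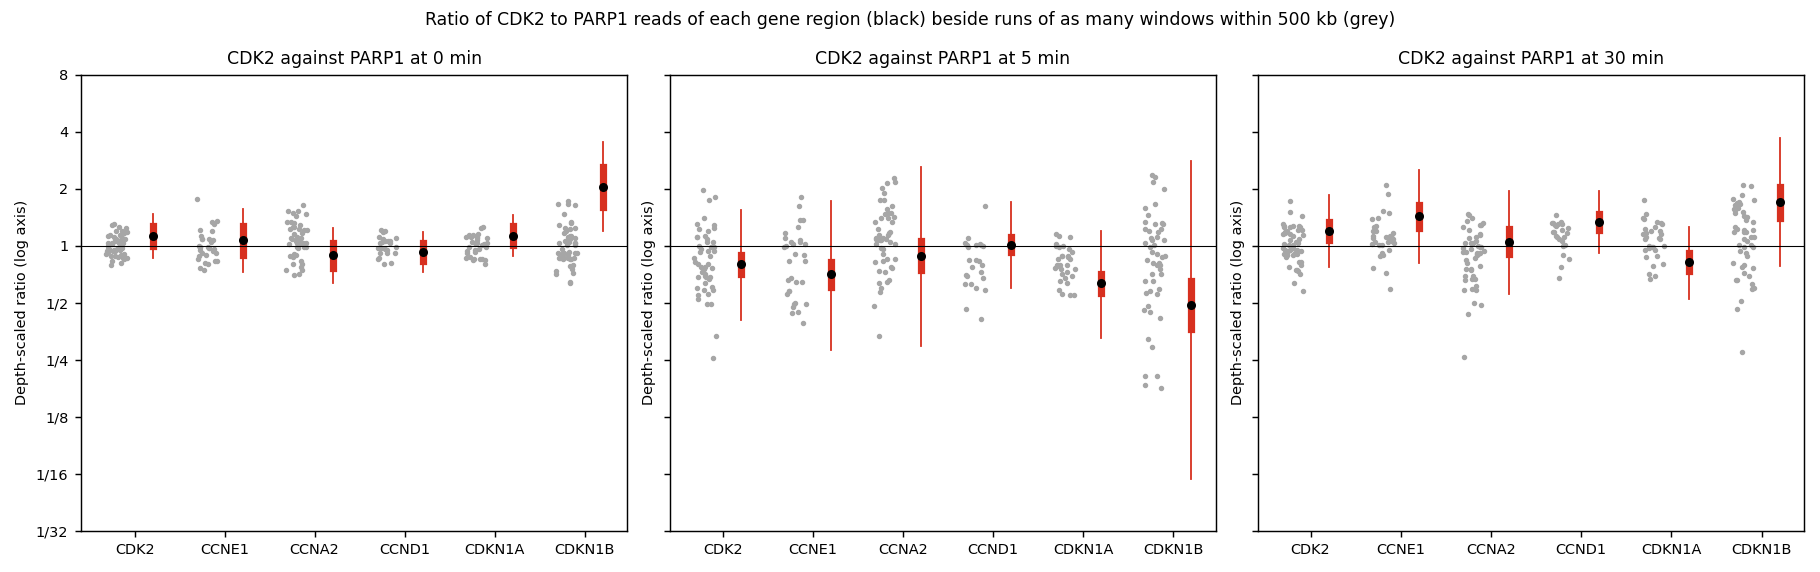
Depth-scaled ratio of CDK2 to PARP1 reads (vertical axis, log scale) in each gene region at 0, 5 and 30 min (black points), with counting 95% intervals (thick bars), widened intervals (thin bars) and neighbouring runs of as many windows (grey). CDKN1B is above all of its neighbouring runs at 0 min, with 2.03, and its interval is the widest of the 6 at 5 min.

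Over the 6 libraries, the regions most alike in level were CCND1 and CDKN1A, with a root mean square difference of 0.37 on the log2 scale of reads over the median compared window. For the CDK2 gene the nearest was CDKN1A (0.50), as it was for CCNA2 (0.57). The nearest of CCNE1 was CCNA2 (0.62), and that of CDKN1B was CCNE1 (0.80). CDKN1B and the CDK2 gene were farthest apart, by 2.08. The comparison was limited to the 6 regions, because the deposited windows carry no gene names.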

How the data were processed

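ChIP-seq reads of 6 libraries, 1 per antibody and time, were deposited by the authors as raw whole-number read counts per 10 kb window, without normalization, per the file headers and values. The submitters' processing notes name Bowtie 1.0.0 and the build hg19. How duplicate reads and reads with several matches were treated is not given in these sources. An input library was not analysed here.

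Members were taken by window start, read as start inclusive and end exclusive; positions are 1-based. The members, lists and comparisons were chosen with earlier results of these data known. All 6 genes and all their windows are described. Each library was scaled by its total. The 278395 of 303641 windows whose mean reached 10 reads entered 9 comparisons; the dispersion is the robust variance around the ratio of 20 windows on each side. The calls were tested on simulated counts with counting error only. That simulation lacked the dispersion of these data, so it cannot show how the calls behave under it. Alternatives were TMM factors (edgeR 4.0.16), median-of-ratios factors (DESeq2 1.42.0), both for scaling only, scaling on the 25% of windows with the lowest means, other minimums, fold limits, references and window ranges. Other cell cycle genes were not assigned to windows, as the gene table was of GRCh38.p14. Python 3.11.15, numpy 2.4.6, scipy 1.17.1, pandas 2.3.3 and R 4.3.3 were used.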

Additional observations from a re-analysis of the deposited data

Results flagged for a closer look

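At 5 min the reads of the 2 antibodies lay on opposite sides of the 0 min level in 2 regions, with both counting intervals off 1. In the CDK2 gene region the CDK2 ratio was 0.847 and the PARP1 ratio 1.20, and in the CDKN1A region the CDK2 ratio was 0.694 and the PARP1 ratio 1.24. The difference was not tested, as there was a single library of each kind. All 4 widened intervals included 1, and when libraries were scaled on windows with the lowest means, the CDK2 ratio of the CDK2 gene region was 1.08. Relative to the surroundings the CDK2 gene region stood at 0.878 for CDK2 and 1.06 for PARP1. Adding 10 kb on each side turned both, to 1.20 and 0.902. The CDKN1A region stood at 0.720 for CDK2 and 1.09 for PARP1 relative to its surroundings. Both PARP1 counting intervals then included 1, with 0.944 to 1.19 at the CDK2 gene and 0.979 to 1.21 at CDKN1A.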

How the results depend on the processing

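No paired analysis was possible because the labels number no replicates. The antibodies share the 3 times, but a fit of antibody plus time, with 2 residual degrees of freedom, would take unlike responses of the antibodies as its error, and it was not run. After counts were divided by the dispersion, the number of the 16 windows called became 0 in the 7 comparisons that had any (5, 2 and 7 for CDK2 at 5 against 0, 30 against 0 and 30 against 5 min, 1 for PARP1 at 5 against 0 min, and 1, 4 and 1 for CDK2 against PARP1 at 0, 5 and 30 min). With a fold limit of 3 these counts were 2, 1 and 4 for CDK2 over time (9.11%, 5.08% and 15.5% of all compared windows), 0 for PARP1 at 5 min (0.305%), and 0, 3 and 0 for CDK2 against PARP1 (0.146%, 10.2% and 4.24%). With a limit of 1.5 they were 6 for CDK2 at 30 against 0 min (39.7%), 2 for PARP1 at 5 min (15.8%), 4 at 30 against 0 min (9.06%) and 3 at 30 against 5 min (12.9%), and 3 and 4 for CDK2 against PARP1 at 0 and 30 min (9.15% and 35.8%). With 10 kb more on each side they were 8, 4 and 11 of 28 windows for CDK2 over time (22.4%, 17% and 33.5%) and 2 for PARP1 at 5 min (2.62%). The median log2 ratio then was -0.091, 0.33 and 0.34 for CDK2 over time, against -0.26, 0.44 and 0.62, and 0.26 and 0.10 for PARP1 at 30 against 0 and against 5 min, from 0.33 and 0.17. The same widening took the ratio of the CDK2 gene region relative to its surroundings from 0.878 to 1.20 for CDK2 at 5 against 0 min, from 1.39 to 0.862 at 30 against 5 min, and from 1.06 to 0.902 for PARP1 at 5 against 0 min. At 30 against 0 min it took that region from 1.22 to 1.03 for CDK2 and from 1.17 to 1.01 for PARP1. For CCNA2 it took PARP1 from 0.671 to 0.857 at 5 against 0 min and from 1.38 to 1.11 at 30 against 5 min. For CDKN1B it took CDK2 at 30 against 5 min from 3.95 to 1.26, and CDK2 against PARP1 from 2.01 to 1.29 at 0 min and from 0.534 to 1.21 at 5 min.

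Scaling on the windows of lowest mean shifts CDK2 at 5 against 0 min by 0.35 (log2), at 30 against 0 min by 0.12 and at 30 against 5 min by -0.22. Under it 3 windows were called for CDK2 at 5 against 0 min (26.1% of all compared), and the median log2 ratio turned from -0.26 to 0.091. The median was 0.56 at 30 against 0 min and 0.39 at 30 against 5 min, and 0.0053 and 0.35 for CDK2 against PARP1 at 5 and 30 min. The region ratios for CDK2 at 5 against 0 min turned from 0.847 to 1.08 at the CDK2 gene and from 0.926 to 1.18 at CCNE1, and CDK2 against PARP1 at 5 min from 0.885 to 1.09 at CCNA2. With a reference of 250 kb the CDK2 gene with CDK2 at 5 min went from 1.07 to 0.971 and CCND1 with PARP1 at 0 min from 1.03 to 0.954 times the reference. Against the reference median CCNE1 with PARP1 at 5 min went from 0.942 to 1.02. TMM and median-of-ratios factors moved no ratio of a region out of its counting interval. Against only the reference windows over the minimum, an alternative chosen after seeing the data, CCND1 with PARP1 at 30 min went from 1.08 to 0.987 times its reference, since windows with no reads left the mean. The cause of the other changes was not tested. The CDKN1B windows held 25 to 122 reads, the lowest depth of the 6 regions, which limits their ratios most.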
